A study of Homo sapiens with 27 samples.

Results

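The CDC-like kinases CLK1, CLK2, CLK3 and CLK4 were followed through transcript counts of RM82 cells, an established Ewing sarcoma cell line, so the values describe this 1 line in culture. Every transcript identifier that GENCODE release 44 assigns to 1 of these 4 genes was taken, which gave 37 listed transcripts of 93530 in the 6 libraries, and 4 genes of 18776. GENCODE annotates 61 CLK transcripts, of which CLK1 had 11 of 14 listed, CLK2 5 of 7, CLK3 15 of 27 and CLK4 6 of 13. The study mapped reads to transcripts of an earlier Ensembl release, so a transcript that is not listed may not have been in that reference. The cells had been incubated for 24 h either with SGC-CLK-1, a kinase inhibitor that the study uses against CLK1 and that is known to inhibit CLK2 and CLK4 as well, or with dimethylsulfoxide (DMSO), its solvent control, with 3 libraries per group and no other treatment or genotype stated. The dose of the inhibitor is not given in the sources used here. RNA was copied from its poly(A) end, tagged with unique molecular identifiers (UMIs) and read as long cDNA on an Oxford Nanopore (ONT) sequencer, and the values are counts of UMIs per transcript. The labels do not say whether the 3 libraries of a group came from separate cultures, while the study's general statement on replication is that experiments were repeated independently. The p-values measure the spread between these libraries, which may be technical if they share a culture.

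CLKs are nuclear kinases that phosphorylate the serine- and arginine-rich (SR) splicing factors and thereby release them from nuclear speckles, the stores of splicing factors. CLK pre-mRNAs are themselves alternatively spliced. Transcripts that skip exon 4 lose the reading frame before the kinase domain, and CLK1 and CLK4 are known for transcripts that keep introns beside this exon and stay in the nucleus. The annotation sorts these products into protein coding transcripts, transcripts marked for nonsense-mediated decay (NMD, the pathway that degrades messages with an early stop codon) and transcripts with a retained intron.

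Exon 4 and its splice sites are shown because the isoforms counted below differ by it. In the lines that follow, the exon is in capitals and 20 bases of each neighbouring intron are in lower case, read on the strand of the gene in GRCh38.
CLK1 exon 4: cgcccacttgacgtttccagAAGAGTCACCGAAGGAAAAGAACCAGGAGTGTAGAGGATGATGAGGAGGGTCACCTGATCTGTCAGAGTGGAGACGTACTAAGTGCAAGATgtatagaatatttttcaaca
CLK4 exon 4: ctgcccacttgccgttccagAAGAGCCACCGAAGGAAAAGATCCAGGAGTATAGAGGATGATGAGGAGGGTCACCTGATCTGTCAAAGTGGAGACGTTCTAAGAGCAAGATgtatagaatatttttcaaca
CLK2 exon 4: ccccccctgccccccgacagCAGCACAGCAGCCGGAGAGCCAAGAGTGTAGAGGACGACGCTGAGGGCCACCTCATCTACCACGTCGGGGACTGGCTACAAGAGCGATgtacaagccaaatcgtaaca
CLK3 exon 4: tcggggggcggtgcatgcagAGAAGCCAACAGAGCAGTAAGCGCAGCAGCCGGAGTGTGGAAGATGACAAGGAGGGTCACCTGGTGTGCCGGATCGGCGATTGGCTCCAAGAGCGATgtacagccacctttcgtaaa
CLK1 exon 4 lies at chr2:200860125-200860215 (91 bases, minus strand), CLK4 exon 4 at chr5:178617344-178617434 (91 bases, minus strand), CLK2 exon 4 at chr1:155268708-155268795 (88 bases, minus strand) and CLK3 exon 4 at chr15:74622120-74622216 (97 bases, plus strand). Each lies inside the coding sequence of the gene's Ensembl canonical transcript, and each length leaves a remainder of 1 when divided by 3, so that skipping shifts the reading frame in all 4 genes. The exons of CLK1 and CLK4 were identical at 93.4% of aligned positions, whereas the other 5 pairs lay between 65.0% and 67.4%. Over the whole coding sequence, CLK1 and CLK4 were identical at 77.2% of positions, the highest value among the 6 pairs. Skipping joins exon 3, in lower case, to exon 5, in capitals, as follows for CLK1 and CLK4, the genes with the most counts on transcripts that reach it.
CLK1 junction: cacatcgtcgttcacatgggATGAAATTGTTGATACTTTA
CLK4 junction: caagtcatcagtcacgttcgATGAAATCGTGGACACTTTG

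The libraries labelled SGC-CLK-1 held 666702, 362826 and 373004 counts in replicates 1 to 3, and those labelled DMSO held 416352, 523456 and 372876. The CLK genes together received 198, 103 and 143 counts in the first group and 171, 251 and 185 in the second, so single CLK transcripts rested on few molecules. Groups are named by their labels throughout for the following reason. A transcript of FRG2 (ENST00000645766) had 64, 44 and 60 counts under the SGC-CLK-1 label against 96, 88 and 95 under the DMSO label. That order is opposite to the order in which the study draws this gene for treated and control cells, so each direction given here is that of the labels. Levels are given as CPM, the counts of a gene or transcript per 1000000 counts of the library, without further scaling. A read could be assigned to several transcripts, since the mapping kept secondary alignments. Sums over a gene can therefore contain a molecule more than once, and counts of isoforms of a gene need not be independent. The same limit holds for ratios and shares of isoforms.

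The labelled cell type was checked against marker genes. Of 8 Ewing sarcoma markers 7 had counts, led by CCND1 with 1464 counts, but NKX2-2, a defining marker, was at 0 in all 6 libraries. The summed level of these markers was 750 ± 54.6 CPM (SD, n = 3) under the SGC-CLK-1 label and 913 ± 154 under the DMSO label. Of 6 plasma cell markers 2 had counts (summed level 4.47 ± 7.74 and 0 CPM), with PRDM1 the most abundant at 4 counts and SDC1, TNFRSF17, MZB1 and IRF4 at 0. PTPRC, present in white blood cells, had 42 counts in all (21.6 ± 10.8 and 11.9 ± 6.82 CPM), and 4 fibroblast markers led by DCN with 147 counts summed to 78.4 ± 11.5 and 62.8 ± 23.2 CPM, in the same order of labels.

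CLK1 was lower in every library labelled SGC-CLK-1 than in any labelled DMSO. Its full-length, exon 4-skipping and other NMD transcripts were lower together, although their counts need not be independent. CLK4 was also lower without overlap, while its main retained-intron transcript was not lower. Groups without overlap and lower under the SGC-CLK-1 label were found for 7.66% of tested gene sums. Neither the CLK1 nor the CLK4 sum had an adjusted p under 0.05 in edgeR with the filter on low counts. CLK3 overlapped between the groups, and CLK2 was close to the limit of detection. In bulk RNA, fewer cells of a type and less RNA per cell cannot be told apart. Across all genes, 15 of 6344 tested gene sums (0.236%) had an adjusted p-value under 0.05 (edgeR, quasi-likelihood F-test, adjusted by Benjamini-Hochberg), 7 higher and 8 lower under the SGC-CLK-1 label, and none of the 3 CLK genes that passed the filter on low counts was among them. DESeq2 called 112 gene sums (1.77%), and CLK1 was among those. At an unadjusted p under 0.05, 441 gene sums (6.95%) were lower under the SGC-CLK-1 label, CLK1 and CLK4 included.

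**Figure D1:**
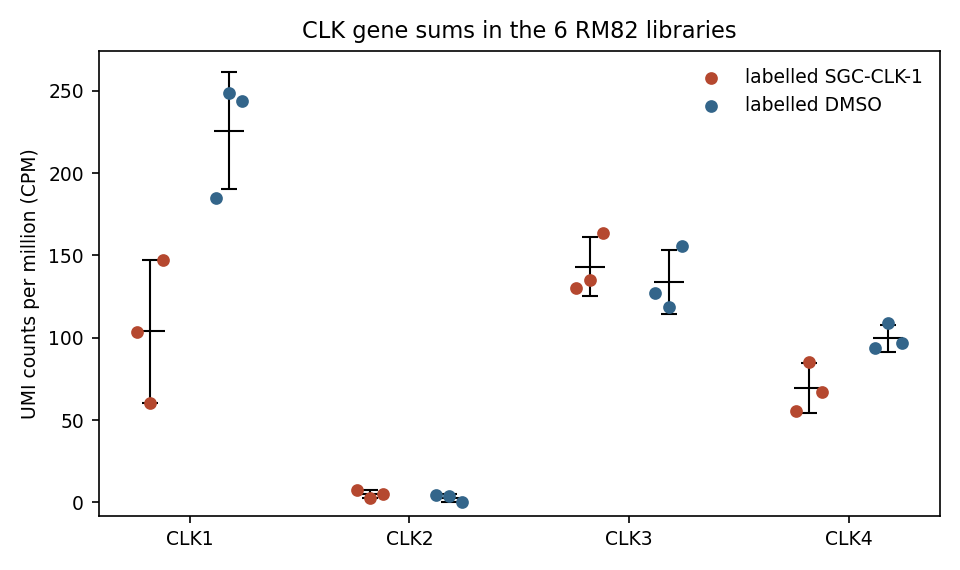
Level of each CLK gene, in CPM on the vertical axis, in the 6 libraries, by the label SGC-CLK-1 (red) or DMSO (blue). Points are libraries, horizontal ticks are means and bars are 1 SD (n = 3). The CLK1 libraries labelled SGC-CLK-1 lie between 60.6 and 147 CPM and those labelled DMSO between 185 and 248, while the CLK3 groups overlap.

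Levels were ordered per length, as CPM per kilobase of each counted transcript, although a UMI marks a molecule whatever its length. With the DMSO label, CLK1 stood at 133 ± 26.02 CPM per kb (SD, n = 3), CLK4 at 35.3 ± 2.87, CLK3 at 33.6 ± 12.6 and CLK2 at 1.41 ± 1.25, where CLK3 and CLK4 overlapped and the other neighbours did not. With the SGC-CLK-1 label, CLK1 stood at 62.3 ± 28.2 CPM per kb, CLK3 at 41.5 ± 4.67, CLK4 at 23.2 ± 5.36 and CLK2 at 2.41 ± 1.28. There CLK1 and CLK3 overlapped, because SGC-CLK-1 replicate 2 had only 33.1 CPM per kb of CLK1, and CLK4 lay below CLK3 in every library. In CPM without division by length the order was another. CLK3 (134 ± 19.4 CPM) then lay above CLK4 (99.7 ± 8.09) without overlap under the DMSO label, below CLK1 (226 ± 35.4). Under the SGC-CLK-1 label CLK3 came first (143 ± 17.9 CPM), with overlap with CLK1 (104 ± 43.4), and CLK4 (69.3 ± 15.1) overlapped with CLK1. These places of CLK3 rest on ENST00000563418, whose last exon lies in EDC3 on the other strand. Without it CLK3 stood at 46.1 ± 5.95 CPM under the SGC-CLK-1 label and 50.2 ± 31.0 under the DMSO label, below CLK1 and CLK4 in every library of either group.

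CLK1 (ENSG00000013441, listed transcripts at chr2:200853009-200864691) encodes the kinase for which the study names the inhibitor. Its transcripts summed to 69, 22 and 55 counts under the SGC-CLK-1 label and to 77, 130 and 91 under the DMSO label. Scaled to depth these were 103, 60.6 and 147 CPM against 185, 248 and 244. No SGC-CLK-1-labelled library reached the lowest DMSO-labelled one, which was also true of 486 of 6344 gene sums (7.66%), and replicate 2 was the lowest of all 6. The mean was 104 ± 43.4 CPM (SD, n = 3) against 226 ± 35.4, 2.17 times as high under the DMSO label. The fitted log2 fold change was -1.19 ± 0.29 (SE, with a 95% interval of -1.82 to -0.57), with an unadjusted p of 0.0011 and an adjusted p of 0.087 in edgeR's quasi-likelihood test. The CLK1 sum passed the threshold with DESeq2 (adjusted p = 0.014), with no filter on low counts (edgeR adjusted p = 0.0076) and when ENST00000321356 alone stood for the gene (edgeR adjusted p = 0.047), and its log2 fold change lay between -1.50 and -0.95 when any 1 library was omitted. DESeq2 called 112 of 6344 gene sums (1.77%), and edgeR without the filter called 171 of 18776. The CLK1 sum passed with none of the libraries omitted in turn (edgeR adjusted p = 0.12 to 0.30). Nor did it pass with at least 10 counts in every library (edgeR adjusted p = 0.052) or with protein coding transcripts only (0.15).

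One T cell marker, CD3G, had counts in the same order of labels as CLK1, with 2, 1 and 1 counts under the SGC-CLK-1 label and 6, 8 and 6 under the DMSO label. Among tested gene sums, 7.66% were lower without overlap under the SGC-CLK-1 label, and a link between CD3G and CLK1 was not tested. The summed level of the T cell markers was 3.0, 2.76 and 5.36 CPM under the SGC-CLK-1 label and 14.4, 15.3 and 16.1 CPM under the DMSO label. Of 6 markers only CD3G and LCK had counts, the single count of LCK in SGC-CLK-1 replicate 3, and CD3D, CD3E, CD28 and CD5 were at 0 in all 6 libraries.

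Between them, 3 isoforms carried most CLK1 counts. ENST00000321356 (chr2:200853009-200864658, 13 exons) encodes the full-length kinase. It had 20, 8 and 20 counts under the SGC-CLK-1 label and 25, 43 and 26 under the DMSO label, or 30.0, 22.0 and 53.6 CPM against 60.0, 82.1 and 69.7. The groups did not overlap, and the log2 fold change was -1.03 ± 0.31 (SE, edgeR adjusted p = 0.054). ENST00000432425 (chr2:200853081-200864656), an NMD transcript made by the exon 3 to exon 5 junction printed above, had 17, 8 and 15 counts against 22, 36 and 25. Its groups did not overlap either, and it fell by 1.12 on the log2 scale (SE 0.32, edgeR adjusted p = 0.038). ENST00000409403 (chr2:200853113-200864662), an NMD transcript that includes exon 4 and lacks a later exon, had 13, 3 and 12 counts against 19, 28 and 17 and fell by 1.26 (SE 0.37, edgeR adjusted p = 0.047), again with no overlap.

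ENST00000409403 and ENST00000432425 were thus the CLK transcripts past the threshold, 2 of the 5 that passed the filter, where 312 of 7840 transcripts (3.98%) were called, 145 higher and 167 lower (2.13%) under the SGC-CLK-1 label. Groups without overlap and lower under the SGC-CLK-1 label, as in these 3, were found for 921 of 7840 transcripts (11.7%). Both calls sat near the threshold. Neither was called by DESeq2 (adjusted p = 0.21 for ENST00000409403 and 0.19 for ENST00000432425) or without the filter on low counts (0.12 and 0.13 by edgeR). With 1 library left out, both lost the call in 5 of 6 cases (edgeR adjusted p of 0.066 to 0.24 for ENST00000409403 and 0.069 to 0.19 for ENST00000432425). Without SGC-CLK-1 replicate 3 both kept it (0.038 and 0.042), and ENST00000321356 passed as well (0.034). ENST00000409403 and ENST00000432425 have no base that is absent from all other listed CLK1 transcripts, and ENST00000321356 has 67 such bases. The assignment of reads among them therefore rests largely on junctions and ends. A molecule may also have been counted on more than 1 of them, so their lower counts are not separate evidence.

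**Figure D2:**
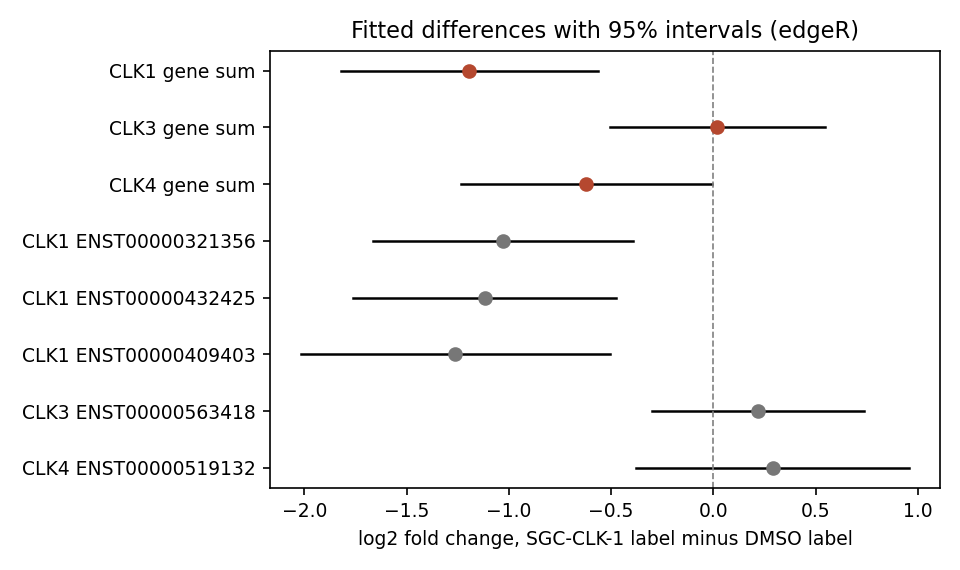
Log2 fold change on the horizontal axis (SGC-CLK-1 label minus DMSO label) of the CLK gene sums (red) and of the 5 CLK transcripts that passed the filter (grey), with 95% intervals from edgeR as lines. The intervals of the CLK1 sum and its 3 transcripts lie below 0, that of CLK4 ends at -0.01, and those of CLK3, ENST00000563418 and ENST00000519132 include 0.

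The CLK1 isoforms were also set against each other within each library. For each count of ENST00000321356 there were 0.85, 1.0 and 0.75 counts of ENST00000432425 under the SGC-CLK-1 label and 0.88, 0.84 and 0.96 under the DMSO label, with overlap (exact two-sided permutation test, p = 0.9). Counts of ENST00000409403 for each count of ENST00000321356 were 0.65, 0.375 and 0.60 against 0.76, 0.651 and 0.654. These groups did not overlap, although the nearest libraries were almost level (exact two-sided permutation test, p = 0.1, the smallest that 3 against 3 can give), and the lowest ratio rests on 3 counts of ENST00000409403. Shares within a gene, a related measure, showed no overlap in 9.07% to 11.5% of genes. No shift passed the test of relative usage. Made over the transcripts of each gene with edgeR's diffSpliceDGE, it gave CLK1 an unadjusted p of 0.95 and an adjusted p of 1.00, among 1805 genes of which 5 (0.277%) were called. By class, CLK1 held 160 protein coding, 215 NMD and 69 retained-intron counts in all libraries. Coding transcripts had a log2 fold change of -1.07 ± 0.34 (SE, edgeR adjusted p = 0.14) and NMD transcripts of -1.21 (SE 0.31, adjusted p = 0.081), where 69 of 6946 sums of a class within a gene (0.993%) were called. Without the filter on low counts the NMD sum passed the threshold (edgeR adjusted p = 0.035) and the coding sum did not (0.16). The 6 retained-intron transcripts together had 15, 2 and 7 counts under the SGC-CLK-1 label and 10, 17 and 18 under the DMSO label, or 22.5, 5.51 and 18.8 CPM against 24.02, 32.5 and 48.3, and their sum did not pass the filter. The usage of classes in CLK1 had an unadjusted p of 0.84 and an adjusted p of 1.00 (diffSpliceDGE; 2 of 1173 genes, 0.171%, were called).

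Counts on annotated transcripts give the state of CLK1 exon 4, as far as reads reached it and were assigned to 1 transcript. Of 423 counts on transcripts that span this exon, 247 were on transcripts that include it, 123 on ENST00000432425, which skips it, and 53 on transcripts that keep an intron beside it. The share that skips exon 4 was 26.6%, 36.4% and 28.3% under the SGC-CLK-1 label and 28.9%, 29.3% and 29.4% under the DMSO label. The means of 30.4% ± 5.23 and 29.2% ± 0.24 (SD, n = 3) differed by less than the spread (exact two-sided permutation test, p = 1.0). The share that keeps an intron was 11.9% ± 4.58 against 12.7% ± 3.44 (exact permutation test, p = 0.8). The shares by exon 4 state, here and for the other genes, were added after values had been seen.

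**Figure D3:**
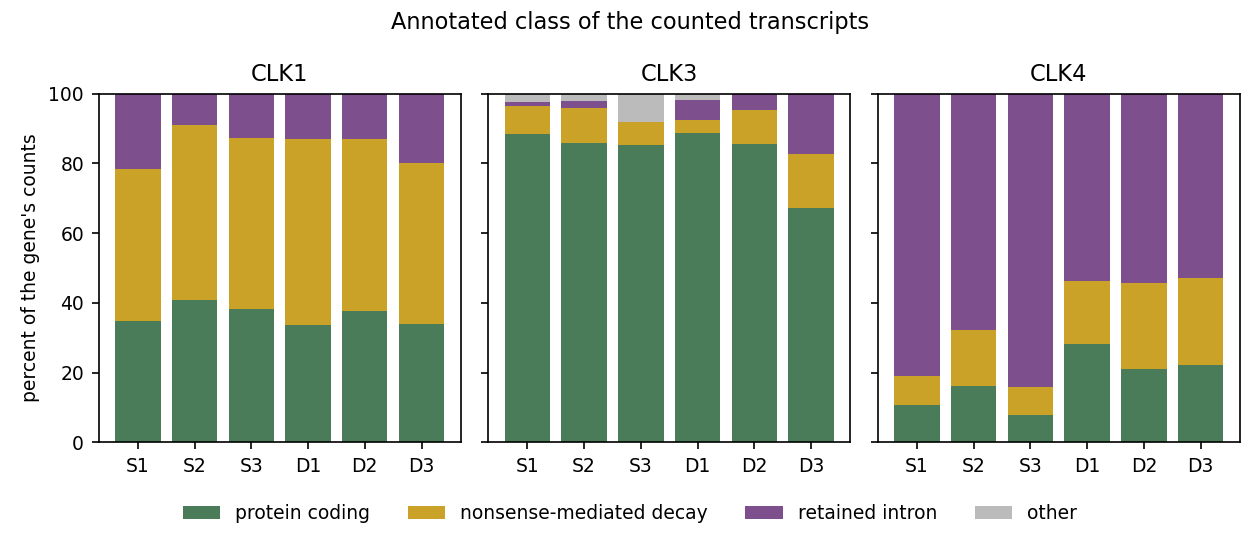
Percent of each gene's counts (vertical axis) by annotated transcript class, for the labels SGC-CLK-1 (S1 to S3) and DMSO (D1 to D3). CLK1 has a similar make-up in all 6 libraries, whereas retained-intron transcripts take 67.7% to 84.0% of CLK4 under the SGC-CLK-1 label and 52.8% to 54.4% under the DMSO label. The retained-intron share showed no overlap between the groups in 454 of 4134 genes (11%).

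Over all 6 libraries, 64.0% of CLK1 counts and 81.3% of CLK4 counts fell outside the protein coding class, against 16.2% for CLK3 and a median of 18.8% (quartiles 3.06% and 43.9%) over 7147 genes with at least 50 counts. CLK1 and CLK4 thus lay above the upper quartile. The CLK3 value rests on ENST00000563418, classed as protein coding, which cannot be told apart from RNA of EDC3 with certainty (below). It held 243 of the 310 coding counts of CLK3. Without it 127 CLK3 counts remained, among them 33 NMD, 18 retained-intron and 9 of other classes. The CLK3 share outside the coding class would then be higher, so its contrast with CLK1 and CLK4 depends on this transcript. For CLK1 this share was 65.2%, 59.1% and 61.8% under the SGC-CLK-1 label and 66.2%, 62.3% and 65.9% under the DMSO label, and the groups overlapped (exact two-sided permutation test, p = 0.2, adjusted p = 0.3 over the 3 genes with counts in every library).

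CLK4 (ENSG00000113240, listed transcripts at chr5:178602664-178627088), the closest relative of CLK1 in sequence, summed to 37, 31 and 25 counts under the SGC-CLK-1 label and to 39, 57 and 36 under the DMSO label. These were 55.5, 85.4 and 67.0 CPM against 93.7, 109 and 96.5, with no overlap, as in the 7.66% of gene sums given above. The means were 69.3 ± 15.1 and 99.7 ± 8.09 CPM (SD, n = 3), and the log2 fold change was -0.62 ± 0.29 (SE, with a 95% interval of -1.23 to -0.01, edgeR adjusted p = 0.35). It became 0.27 when only the most abundant CLK4 transcript stood for the gene.

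That transcript, ENST00000519132 (chr5:178603270-178617388, 6 exons), carried 105 of the 225 CLK4 counts. It begins inside exon 4 and keeps the intron between exons 4 and 5 (395 bases), which ENST00000519583 keeps as well. Of its bases, 46.5% are in no other listed CLK4 transcript, and all 1454 of them lie in its last exon (chr5:178603270-178605382, 2113 bases) and none in that intron. As reads start from the poly(A) end, its counts need not show whether the intron beside exon 4 was kept. It had 26, 14 and 19 counts under the SGC-CLK-1 label and 15, 22 and 9 under the DMSO label, or 39.0, 38.6 and 50.9 CPM against 36.03, 42.0 and 24.1. The groups overlapped, and the log2 fold change was 0.29 ± 0.33 (SE, with a 95% interval of -0.38 to 0.96, edgeR adjusted p = 0.70). The other 5 listed CLK4 transcripts together had 11, 17 and 6 counts against 24, 35 and 27. In CPM they stood at 16.5, 46.9 and 16.1 against 57.6, 66.9 and 72.4, without overlap and with a log2 ratio of means of -1.31 (exact two-sided permutation test, p = 0.1, the smallest that 3 against 3 can give), where 7.66% of gene sums and 11.7% of transcripts were lower without overlap. This sum was formed after the values of ENST00000519132 had been seen.

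ENST00000519132 accordingly took 70.3%, 45.2% and 76.0% of CLK4 counts under the SGC-CLK-1 label and 38.5%, 38.6% and 25.0% under the DMSO label. The means of 63.8% ± 16.4 and 34.0% ± 7.81 (SD, n = 3) differed by 29.8 percentage points (p = 0.1, exact permutation test, two-sided), and the difference lay between 23.7 and 39.1 points with each library left out. This share was singled out after the values had been seen. The share of a gene on its most abundant transcript showed no overlap between groups in 770 of 6694 genes (11.5%). The share of CLK4 counts outside the protein coding class was 89.2%, 83.9% and 92.0% against 71.8%, 78.9% and 77.8%, also without overlap (exact two-sided permutation test, p = 0.1, adjusted p = 0.3 over 3 genes), as in 648 of 7147 genes (9.07%).

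The remaining CLK4 isoforms were below the filter. ENST00000316308 (chr5:178602664-178627050, 13 exons), the single coding transcript listed, had 4, 5 and 2 counts under the SGC-CLK-1 label and 11, 12 and 8 under the DMSO label. In CPM these were 6.0, 13.8 and 5.36 against 26.4, 22.9 and 21.5, a log2 ratio of means of -1.49 (exact two-sided permutation test, p = 0.1). It too was singled out after its values were seen. All of the bases of ENST00000316308 are shared with other listed CLK4 transcripts. The retained-intron sum, which includes ENST00000519132, was 45.0, 57.9 and 56.3 CPM against 50.4, 59.2 and 51.0, with overlap and a log2 fold change of -0.07 ± 0.30 (SE, edgeR adjusted p = 0.94). The 2 NMD transcripts summed to 3, 5 and 2 counts against 7, 14 and 9. Of all CLK4 counts, 18 were on the transcript that skips exon 4, 64 on transcripts that include it and 143 on transcripts that keep an intron beside it. The last share was 77.6% ± 8.67 against 53.7% ± 0.82 (SD, n = 3; exact two-sided permutation test, p = 0.1), and it is the retained-intron share under another name, because the same 3 transcripts make up both, ENST00000519132 with the limit given above.

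CLK3 (ENSG00000179335, listed transcripts at chr15:74598500-74645414) had 87, 49 and 61 counts under the SGC-CLK-1 label and 53, 62 and 58 under the DMSO label. The levels of 130, 135 and 164 CPM overlapped with 127, 118 and 156 CPM. The fitted log2 fold change was 0.02 ± 0.25 (SE, with a 95% interval of -0.51 to 0.54, edgeR adjusted p = 0.98). A change of CLK3 within this interval therefore remains possible, and the interval is not a limit of detection.

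Most CLK3 counts came from 1 transcript. ENST00000563418 (chr15:74628594-74645414, 3 exons) had 60, 30 and 44 counts under the SGC-CLK-1 label and 44, 38 and 27 under the DMSO label, 243 of 370 CLK3 counts in all. These were 90.0, 82.7 and 118 CPM against 106, 72.6 and 72.4, with overlap, and the log2 fold change was 0.22 ± 0.25 (SE, edgeR adjusted p = 0.71). GENCODE classes it as protein coding, with its start not found. Its last exon, at chr15:74635098-74645414, is 10317 bases long and lies wholly inside EDC3, a gene of mRNA decapping on the other strand, with 701 of its bases (6.79%) in EDC3 exons. The transcript contains a run of 17 A. Of the other listed CLK transcripts, ENST00000564353, also of CLK3 and with 2 counts in all, has a run of 18 A and the rest have 7 or fewer. No strand setting is stated for the mapping, so ENST00000563418 and RNA of EDC3 cannot be told apart with certainty. EDC3 had 61, 37 and 26 counts against 43, 37 and 19 (log2 fold change 0.16, SE 0.31, edgeR adjusted p = 0.87). The other 14 CLK3 transcripts held 27, 19 and 17 counts against 9, 24 and 31.

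Among those 14 transcripts, the 4 retained-intron ones had 1, 1 and 0 counts under the SGC-CLK-1 label and 3, 3 and 10 under the DMSO label, of which DMSO replicate 3 gave the most. NMD transcripts had 7, 5 and 4 counts against 2, 6 and 9. Of 115 CLK3 counts on transcripts that span exon 4, 66 include it, 34 skip it and 15 keep an intron beside it. The share that skips was 33.3%, 27.8% and 33.3% against 28.6%, 25.0% and 30.0%, with overlap (exact two-sided permutation test, p = 0.3). The share that includes exon 4 was 66.7% in each library labelled SGC-CLK-1 and 42.9%, 62.5% and 40.0% under the DMSO label, and the share that keeps an intron was 0%, 5.56% and 0% against 28.6%, 12.5% and 30.0%. Neither of these overlapped between the groups (exact two-sided permutation tests, p = 0.1 and 0.1), and the second rests on 15 counts in all. Other shares within a gene showed no overlap in 9.07% to 11.5% of genes. The retained-intron share of all CLK3 counts was 1.15%, 2.04% and 0% against 5.66%, 4.84% and 17.2%, likewise without overlap (exact permutation test, p = 0.1), as in 454 of 4134 genes (11%). Its difference of -8.18 percentage points became -4.19 without DMSO replicate 3, and this share of CLK3 was also added after values had been seen. CLK3 counts outside the coding class made up 11.5%, 14.3% and 14.8% against 11.3%, 14.5% and 32.8%, so that DMSO replicate 3 alone stood apart (exact permutation test, p = 0.7, adjusted p = 0.7 over 3 genes). Without that library the difference of -6.02 percentage points became 0.59. These shares of all CLK3 counts include ENST00000563418. Without it, DMSO replicate 1 kept 9 CLK3 counts, of which 2 were NMD, 3 retained-intron and 1 of another class. DMSO replicate 3 kept 31, of which 9 were NMD and 10 retained-intron, so it then no longer stood apart alone.

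CLK2 (ENSG00000176444, listed transcripts at chr1:155262868-155273504), a kinase of the same family, was counted 5, 1 and 2 times under the SGC-CLK-1 label and 2, 2 and 0 times under the DMSO label. These 12 counts fell on 5 transcripts, of which 3 are coding with 8 counts. The gene was below the filter, and in the edgeR fit without a filter, over 18776 genes, its log2 fold change was 0.77 ± 1.24 (SE, with a 95% interval of -1.65 to 3.20, adjusted p = 0.86). The count of 0 in DMSO replicate 3 allows up to 8.05 CPM (3 counts, counting error only), above every CLK2 level measured, so no difference in CLK2 was detectable at this depth.

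In all, 32 of the 37 CLK transcripts did not pass the filter, with between 1 and 42 counts in all libraries together, a median of 5, and 21 of them with 10 or fewer. They comprised 8 of CLK1 (2 coding and 6 retained intron), the 5 of CLK2 (3 coding and 2 of other classes), 14 of CLK3 (5 coding, 2 NMD, 4 retained intron and 3 other) and 5 of CLK4 (1 coding, 2 NMD and 2 retained intron). The mean CPM was lower under the SGC-CLK-1 label for 17 and higher for 15 of them. The 5 tested transcripts held 67.1% of the 1051 CLK counts.

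The CLK genes were also compared within each library, where depth cancels. The log2 ratio of CLK1 to CLK3 counts was -0.33, -1.16 and -0.15 under the SGC-CLK-1 label and 0.54, 1.07 and 0.65 under the DMSO label. The ratio was below 0 in every library of the first group and above 0 in every library of the second, and the means differed by -1.30 (exact two-sided permutation test, p = 0.1, adjusted p = 0.2 over 3 ratios). Without ENST00000563418 the difference was -1.28, but the groups overlapped (exact permutation test, p = 0.2). The ratios of CLK1 to CLK4 (difference -0.66) and of CLK3 to CLK4 (0.64) overlapped between the groups (exact two-sided permutation tests, p = 0.2 and 0.2, adjusted p = 0.2 and 0.2 over 3 ratios). A different response of CLK1 and CLK4 was therefore not shown. These ratios were chosen after values of the genes had been seen.

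Genes that act with the CLKs were read from the same fit of gene sums. None of the tested genes on the 4 lists passed an adjusted p of 0.05 in edgeR with the filter on low counts. SRSF11 and LUC7L3 passed with DESeq2 (adjusted p = 0.0059 and 0.0092) and with edgeR without that filter (adjusted p = 0.0064 and 0.040). Over all genes, those settings called 112 of 6344 gene sums (1.77%) and 171 of 18776. Of 12 SR protein kinases and other relatives in the CMGC kinase group, 8 were tested, with a median log2 fold change of -0.10, 1 higher and 0 lower at an unadjusted p under 0.05. Of 14 SR and SR-like proteins, the substrates of CLKs, 12 were tested, with a median of -0.04, 3 lower and 1 higher. Of the 14 nuclear speckle and SR-related scaffolds, all tested, the median was -0.22 with 2 lower and 0 higher, and of 10 NMD factors 6 were tested, with a median of -0.16, 1 lower and 0 higher. Over all 6344 genes the median was -0.001, with 441 lower and 437 higher (6.89%).

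Among the kinases, HIPK1, a nuclear kinase of transcriptional regulators, had 54.0, 71.7 and 42.9 CPM under the SGC-CLK-1 label and 24.02, 13.4 and 10.7 under the DMSO label. The groups did not overlap, as in 774 of 6344 gene sums (12.2%) that were higher under the SGC-CLK-1 label, beside the 7.66% that were lower. Since the genes named from each list were those with the smallest p in each direction, up to 4 per list, a lack of overlap among them is no further result. HIPK1's log2 fold change of 1.72 ± 0.45 (SE, edgeR adjusted p = 0.10) ran opposite to that of CLK1. SRPK1, the cytoplasmic kinase that phosphorylates the same SR proteins before they enter the nucleus, had a log2 fold change of -0.65 (adjusted p = 0.40), HIPK3 of 0.76 (adjusted p = 0.44) and the spliceosomal kinase PRPF4B of -0.48 (adjusted p = 0.51), each with overlap. Among the substrates, SRSF11 stood at 1054, 1127 and 874 CPM against 1744, 1326 and 2282 (log2 fold change -0.89, SE 0.22, edgeR adjusted p = 0.087). SRSF1, the prototype SR protein, stood at 472, 554 and 625 CPM against 346, 359 and 349 (log2 fold change 0.57, SE 0.19, adjusted p = 0.19), and SRSF3 at 450, 391 and 485 against 557, 585 and 614 (log2 fold change -0.48, SE 0.19, adjusted p = 0.27). SRSF11, SRSF1 and SRSF3 had groups that did not overlap, whereas those of SRSF2 did (log2 fold change 0.20, adjusted p = 0.82).

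LUC7L3, a U1 snRNP-associated SR-related protein, had 589, 469 and 534 CPM under the SGC-CLK-1 label and 757, 842 and 1024 under the DMSO label (log2 fold change -0.80, SE 0.20, edgeR adjusted p = 0.090). RSRC1 had a log2 fold change of -0.66 (adjusted p = 0.30). Both were without overlap, as in the 7.66% of gene sums that were lower. ACIN1 (0.36, adjusted p = 0.54) and SON (0.31, adjusted p = 0.60), 2 speckle proteins, had log2 fold changes above 0 and overlapping groups. Of the NMD factors, which act on transcripts such as ENST00000409403 and ENST00000432425, SMG1, the kinase that phosphorylates UPF1, had 271, 267 and 271 CPM against 365, 405 and 408 (log2 fold change -0.62, SE 0.19, edgeR adjusted p = 0.15). UPF3B (-0.74, adjusted p = 0.39), UPF2 (0.37, adjusted p = 0.61) and SMG9 (0.40, adjusted p = 0.72) had overlapping groups.

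**Figure D4:**
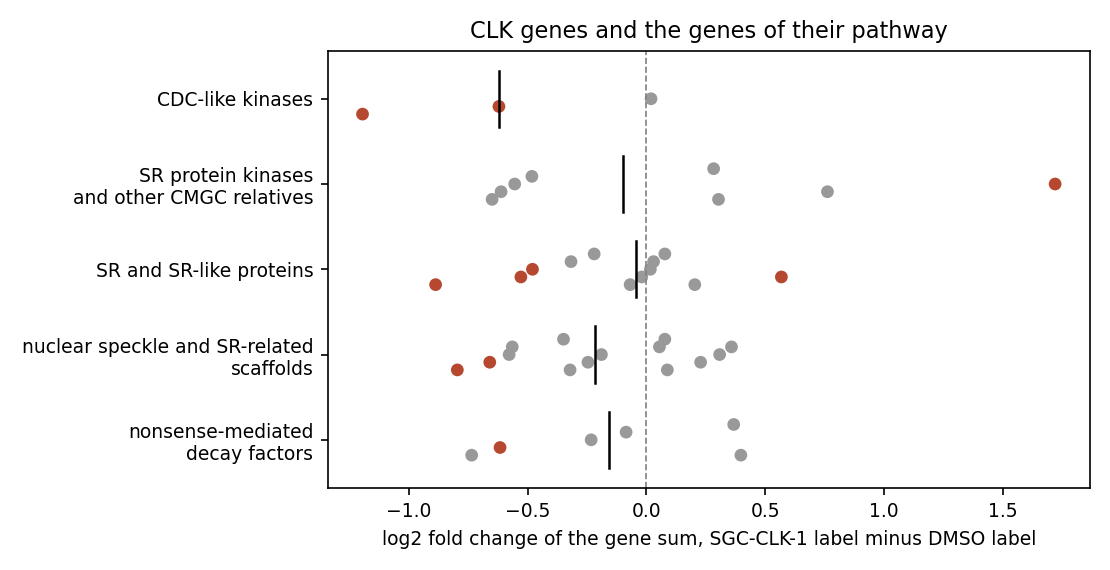
Log2 fold change of each tested gene sum (horizontal axis, SGC-CLK-1 label minus DMSO label) for the CLK genes and for the 4 lists of genes that act with them. Red points have an unadjusted p under 0.05 (edgeR), grey points do not, vertical black lines are medians and offsets within a row only separate points. CLK1 at -1.19 is the lowest and HIPK1 at 1.72 the highest of the points drawn.

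The genes most like each CLK gene across libraries were taken as those with the highest Pearson correlation of log2 CPM over the 6 libraries among 6343 other genes, which describes these libraries only. For CLK1 they were TAPBP (r = 0.99), SRSF3 (r = 0.98) and DDIT3 (r = 0.98), for CLK4 they included GLT8D1 (r = 0.99) and CNTN2 (r = 0.98), and for CLK3 RPL23 (r = 0.98), REV3L (r = 0.98) and XAF1 (r = 0.97). With 6 libraries high values are common, since 125 genes reached 0.9 with CLK1, 48 with CLK4 and 43 with CLK3, and all points share the difference between the groups.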

How the data were processed

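The authors sequenced oligo(dT)-primed, UMI-tagged cDNA of RM82 cells on ONT PromethION flow cells, mapped reads to hg38 transcripts of an Ensembl release older than the annotation used here with minimap2 keeping up to 3 secondary alignments, and deposited raw UMI counts per transcript, 1 table per library. The UMI-tools or homotrimer deduplication behind the deposited counts is not stated, and the methods and the submitters' processing notes give different minimap2 versions. Identifiers were matched without version to GENCODE release 44 (86362 of 93530), which also gave classes, and 36 of 37 CLK transcripts had the same version. Unlisted transcripts were set to 0. Total counts (362826 to 666702) limit precision.

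Counts per transcript, per gene and per class within a gene were fitted with edgeR 4.0.16 in R 4.3.3 (filterByExpr, minimum count 10 and minimum total 15, TMM scaling, quasi-likelihood F-tests, adjusted p under 0.05 by Benjamini-Hochberg over all features), usage with diffSpliceDGE, and shares with exact permutation tests (scipy 1.17.1). Of 200 gene sums drawn at random and simulated with a fold of 4, edgeR recovered 92.0%. The differences fitted for the CLK genes were smaller, so this share does not give their recovery. Sequences were read from GRCh38.

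The genes, lists and tests were chosen with earlier results of these data known. All CLK sums, CLK transcripts past the filter and up to 4 genes per list by smallest p in each direction were named. Of the genes most like each CLK gene, 3 were taken per gene, of which 1 is not reported here. Alternatives were RLE or no scaling, other filters, DESeq2, a replicate block and leaving out each library. The common molecular identifier and PCR-cycle libraries were not used.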

Additional observations from a re-analysis of the deposited data

How the results depend on the processing

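The direction of the CLK1 sum held in all 14 alternatives (log2 fold change -1.50 to -0.95) and that of ENST00000321356, ENST00000409403, ENST00000432425, ENST00000519132 and ENST00000563418 in all of theirs. The CLK1 sum passed the threshold without a filter (-1.17, edgeR adjusted p = 0.0076), with DESeq2 (-1.20, adjusted p = 0.014) and with ENST00000321356 alone (-1.05, adjusted p = 0.047), but not with protein coding transcripts only (edgeR adjusted p = 0.15). Nor did the CLK1 sum pass with any 1 library left out (edgeR adjusted p = 0.12 to 0.30). CLK4 reversed with its most abundant transcript alone (0.27). CLK3, near 0, ranged from -0.092 to 0.16 with each library left out, reversing without SGC-CLK-1 replicate 3 (-0.092), DMSO replicate 1 (-0.04) and DMSO replicate 2 (-0.08). The CLK3 share outside the coding class reversed without DMSO replicate 3 (0.59 percentage points, range -10.1 to 0.59), and the CLK1 share that skips exon 4 without SGC-CLK-1 replicate 2 (-1.78, range -1.78 to 3.12, chosen after seeing the data). For CLK4 and CLK3 the filtered share was not run, as 1 transcript each passed the filter. For none of these was the cause tested.

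Counts of calls moved far more. Called gene sums (15) were 24 with library size only, 64 with at least 10 counts in every library, 171 without a filter, 112 with DESeq2 and 1 to 30 with a library left out. Called transcripts (312) were 169 with at least 10 counts in every library, 162 without a filter, 98 with DESeq2 and 86 to 355 with a library left out, lowest without SGC-CLK-1 replicate 2. Called class sums (69) were 148 without a filter, 110 with DESeq2 and 3 to 41 with a library left out. Genes with changed transcript usage (5) were 1 with at least 10 counts in every library, 2 without a filter and 1 to 4 with a library left out, and those with changed class usage (2) were 1 with at least 10 counts in every library and 1 to 2 with a library left out. For none of these counts was the cause tested.

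Deviations of same-numbered libraries from their group means correlated at -0.002 to 0.093, and those of other pairs at -0.123 to 0.067. With 3 libraries per group these values cannot decide whether the numbers pair the libraries. The main fit, without pairing, called 15 gene sums, 312 transcripts and 69 class sums. With the replicate block, 36 gene sums, 501 transcripts and 94 class sums were called, and ENST00000321356 passed the threshold (edgeR adjusted p = 0.029) while the CLK1 sum did not (adjusted p = 0.061). Depth limits CLK2 and the 32 CLK transcripts below the filter.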
